A study of Mus musculus with 6 samples.

Results

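Trat1, Styk1, Gprin3, Smco4 and Ahnak are 5 of the 16158 genes measured in single cells of mouse skin. They were chosen because their transcripts were lower in CD8 T cells when an antigen was switched on in the skin, or when the antigen was combined with CPI. The levels by group in CD8 T cells are therefore given as a description, with no test. The question followed here is whether the lower levels lay within kinds of CD8 T cell or came with a change in the mixture of cells.

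All 6 mice were of the NINJA strain, in which expression of an antigen can be induced, and were 6 to 12 weeks old. Cells were prepared from the skin that had been treated with 4-OH-Tam, and the labels tell that P14 CD8 T cells, whose receptor is transgenic, were recovered from every animal. The 2 NO_AG mice had the antigen off, the 2 AG mice had it on, and the 2 AG_CPI mice had it on together with CPI, a term the labels do not spell out. By the labels the 3 groups share the strain, the 4-OH-Tam and the P14 cells, although the NO_AG libraries hold few cells with the P14 segment (counted below), and no dose, sex, day or batch is given.

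A T cell reads antigen through a receptor that signals through the CD3 chains and a set of adaptor proteins. Continued antigen drives CD8 T cells from a resting, Tcf7-expressing state to effector states with granzymes and chemokines, and inhibitory receptors such as PD-1 restrain these cells in tissue. Mouse epidermis also holds dendritic epidermal T cells, which carry a gamma-delta receptor built with the Trdv4 segment. The P14 receptor uses the beta chain segment Trbv13-3.

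Trat1 encodes TRIM, a transmembrane adaptor that associates with the T cell receptor complex. Styk1 encodes a membrane kinase-like protein known from natural killer cells. Gprin3 encodes a member of a family that binds G protein alpha subunits. Smco4 encodes a small protein with a single membrane pass. Ahnak encodes a very large scaffold protein that binds annexin A2 and S100a10 and is linked to calcium entry in T cells.

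On GRCm38, the same assembly as mm10, Trat1 lies on chromosome 16 from 48730774 to 48772021 on the minus strand and overlaps the gene Gm8670 on that strand, so reads could fall to either. Styk1 lies on chromosome 6 from 131299142 to 131353597 and Gprin3 on the same chromosome from 59347226 to 59426294, both on the minus strand. Smco4 lies on chromosome 9 from 15493432 to 15545260, and Ahnak on chromosome 19 from 8989284 to 9076914, both on the plus strand. All 5 are protein coding.

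The upstream sequences of Trat1 and Smco4 are shown because these 2 genes had lower levels in cells with the P14 segment, as did Tcf7, whose protein binds TCF/LEF words. Each run holds the 250 bases before the RefSeq start on GRCm38.p6, 5′ to 3′ on the strand of the gene, with TCF/LEF words in capitals. The Trat1 run is chr16:48772063-48772312 on the minus strand, and the Smco4 run is chr9:15493182-15493431 on the plus strand.
Trat1: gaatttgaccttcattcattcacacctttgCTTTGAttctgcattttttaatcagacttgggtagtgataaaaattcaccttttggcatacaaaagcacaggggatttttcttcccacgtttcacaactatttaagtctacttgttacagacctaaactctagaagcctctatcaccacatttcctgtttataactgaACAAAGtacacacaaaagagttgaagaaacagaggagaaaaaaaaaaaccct
Smco4: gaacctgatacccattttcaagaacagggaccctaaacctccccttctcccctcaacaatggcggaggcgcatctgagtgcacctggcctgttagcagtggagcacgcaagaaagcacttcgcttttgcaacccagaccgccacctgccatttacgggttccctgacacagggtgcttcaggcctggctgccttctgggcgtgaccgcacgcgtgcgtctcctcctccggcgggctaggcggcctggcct

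3 motif families were searched on both strands, chosen with the Tcf7 values known, and the words found do not overlap. The Trat1 window held 2 TCF/LEF words, CTTTGA starting 220 bases before the start site and the reverse of CTTTGT at 52 bases before it. It also held 1 RUNX word, the reverse of TGTGGT at 76 bases, and no ETS word (ACCGGAAG or ACAGGAAG). The windows of Gprin3, Ahnak and Smco4, the last with 2 start sites, held no word of the 3 families, and no entry was used for Styk1. Among 32851 windows of this length, 27.6% held a TCF/LEF word, 14.1% a RUNX word and 4.57% an ETS word. A match is a run of letters and was not tested as a binding site.

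Cells were placed by the UMIs (unique transcript molecules) they carried. The CD8 gate took cells with Cd3e or Cd3g, with Cd8a or Cd8b1 and without Cd4. It held 138 and 443 cells in NO_AG 1 and 2, 1024 and 1000 in AG 1 and 2, and 1151 and 1286 in AG_CPI 1 and 2, of 20461 retained cells. Of these, 2, 13, 485, 492, 664 and 844 cells carried a Trbv13-3 UMI in the same order, from 1.45% and 2.93% of the gate in NO_AG to 47.4% and 49.2% in AG and 57.7% and 65.6% in AG_CPI. Gate cells with a UMI of Trdc, a gamma-delta receptor gene, made up 4.35% and 3.39% in NO_AG, 22.2% and 25.8% in AG, then 34.8% and 31.5% in AG_CPI. A cell without a Trbv13-3 UMI can still be a P14 cell whose receptor transcript was missed. Cells with another Trbv segment and none of Trbv13-3 were therefore also read: 91 and 312 in NO_AG, 386 and 150 in AG, then 145 and 203 in AG_CPI.

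Libraries held between 5903724 and 24656382 UMIs, with medians of 2527 to 4744 per cell. Pairs of libraries shared 5 to 35 cell barcodes. The library AG_CPI 1 stood apart: outside the T cell gates 15.2% of its 519 cells carried a UMI of the Y-linked gene Ddx3y and 2.70% carried Xist, whereas 57.5% of its CD8 gate cells carried Xist. Whether this library holds cells of more than 1 mouse was not tested, and its values are those of the library. Results of the members that rest on it are given without it where the call changes. Calls of the other named genes were not checked without it. Keratinocyte-like cells with a Trbv13-3 UMI numbered 77 of 1948 in AG 2, 28 of 368 in AG_CPI 2, 7 of 1047 in AG 1 and 3 of 164 in AG_CPI 1, so some segment UMIs sit in cells that should lack them. Fewer transcripts per cell and fewer cells that express a gene cannot be told apart from a mean.

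The label of a lymphocyte gene was checked against keratinocyte-like cells, where Smco4 and Ahnak were high. Keratinocyte-like cells (Krt5 and Krt14 high, no Ptprc) averaged 0.408 to 1.15 Smco4 UMIs per 10000 UMIs of a cell over the 6 mice, the gate on CD8 T cells below holding 0.207 to 1.51. Their Ahnak level was 5.63 to 9.08 per 10000. In the same cells Trat1 was at 0 to 0.0832, Styk1 at 0 to 0.00788 and Gprin3 at 0.0367 to 0.0782. In the AG mice Gprin3 was at 0.0367 and 0.0499 in these cells and at 0.0947 and 0.0883 in the CD8 gate.

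The 5 genes followed 3 patterns in the CD8 gate. Trat1 and Smco4 were lower in AG and lower again in AG_CPI. Styk1 and Gprin3 were lower in AG and higher again in AG_CPI, and Ahnak was lower in both antigen groups.

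Trat1 averaged 2.18 and 3.22 UMIs per 10000 in NO_AG 1 and 2, 1.22 and 0.450 in AG, then 0.0388 and 0.0614 in AG_CPI. The 3 groups did not overlap. The share of cells with a Trat1 UMI was 29.0% and 47.6% in NO_AG, 20.6% and 7.80% in AG, then 0.782% (Wilson 95% interval 0.412% to 1.48%) and 1.56% (1.01% to 2.39%) in AG_CPI. These intervals cover counting error only, and keratinocyte-like cells had 0% to 2.68%. In the AG_CPI libraries themselves, keratinocyte-like cells had 0% (Wilson 95% interval 0% to 2.29%) and 0.543% (0.149% to 1.96%). These intervals overlap those of the gate, so the counts do not place the gate above these cells. Medians were 3621 and 2170.5 UMIs in the keratinocyte-like cells and 2310 and 2717.5 in the gate. On the log2 scale of the level plus 0.1, the fitted difference was -1.57 (SE 0.375) for AG minus NO_AG and -2.52 (SE 0.375) for AG_CPI minus AG.

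Smco4 averaged 1.51 and 1.10 per 10000 in NO_AG, 0.648 and 0.463 in AG, then 0.207 and 0.248 in AG_CPI. Here too the 3 groups did not overlap. The fitted difference was -0.98 (SE 0.239) for AG minus NO_AG and -0.97 (SE 0.239) for AG_CPI minus AG. Summed keratinocyte markers in the gate were 14.5 and 29.9 per 10000 in NO_AG, 17.4 and 68.6 in AG, then 6.03 and 18.5 in AG_CPI, and their part in the Smco4 levels was not tested.

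Styk1 averaged 0.381 and 0.238 per 10000 in NO_AG, 0.0599 and 0.0249 in AG, then 0.259 and 0.210 in AG_CPI. AG lay below both other groups, which overlapped. The AG values rest on 22 and 8 UMIs. The share of cells with a Styk1 UMI was 8.70% and 5.42% in NO_AG, 2.15% and 0.80% in AG, then 5.73% and 5.68% in AG_CPI. The fitted difference was -1.43 (SE 0.255) for AG minus NO_AG and 1.27 (SE 0.255) for AG_CPI minus AG.

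Gprin3 averaged 0.496 and 0.401 per 10000 in NO_AG, 0.0947 and 0.0883 in AG, then 0.265 and 0.323 in AG_CPI. The groups did not overlap, with AG lowest and AG_CPI between. A Gprin3 UMI was found in 10.9% and 9.71% of cells in NO_AG, 3.13% and 2.40% in AG, then 6.08% and 8.55% in AG_CPI. The fitted difference was -1.42 (SE 0.202) for AG minus NO_AG and 1.07 (SE 0.202) for AG_CPI minus AG.

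Ahnak averaged 7.81 and 7.56 per 10000 in NO_AG, 3.61 and 4.62 in AG, then 4.38 and 4.73 in AG_CPI. NO_AG lay above both antigen groups, which overlapped. The fitted difference was -0.78 (SE 0.163) for AG minus NO_AG and 0.19 (SE 0.163) for AG_CPI minus AG. Among all 7464 genes fitted in the gate, limma called 1.33% for AG minus NO_AG (1.19% higher, 0.134% lower), 0.0268% for AG_CPI minus AG (all higher) and 3.38% for AG_CPI minus NO_AG (2.55% higher, 0.831% lower). Without AG_CPI 1 the fitted differences for AG_CPI minus AG were -2.43 (Trat1), -0.90 (Smco4), 1.15 (Styk1), 1.16 (Gprin3) and 0.21 (Ahnak). Nothing is read from the shares called for the members, which this contrast chose.

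The next comparison set cells with and without the P14 segment against each other inside each AG and AG_CPI mouse. Trat1 and Smco4 had lower levels in the cells with Trbv13-3 in all 4 mice. Smco4 passed the test. Among these mice Trat1 reached 0.1 per 10000 with the segment in AG 1 only, so it met the filter on low values through the cells without the segment, where it is high; its fitted values and p are printed below, and nothing is read from the p. Styk1, Gprin3 and Ahnak did not pass. The members were chosen by group differences in this same gate, so the comparison is not wholly separate from their choice.

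**Figure D1:**
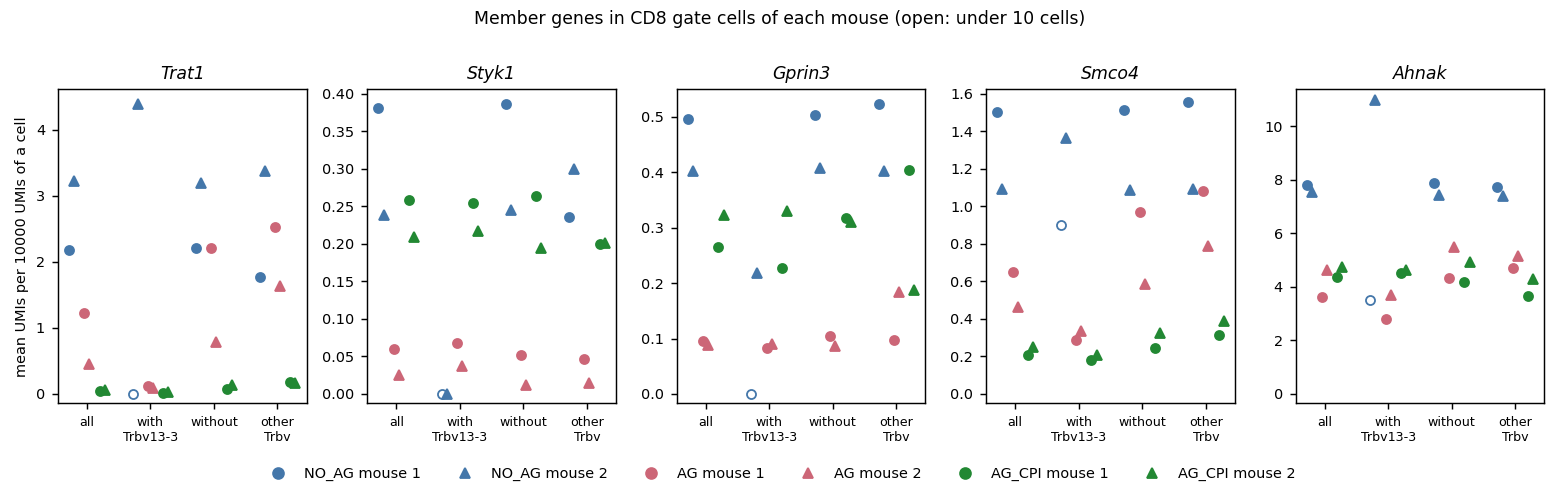
Mean UMIs per 10000 UMIs of a cell for each member (linear axes from about 0, one panel a gene) in the CD8 gate of each mouse: all cells, cells with a Trbv13-3 UMI, cells without, and cells with another Trbv segment. Circles are mouse 1 and triangles mouse 2, and open symbols rest on under 10 cells. Trat1 of cells with the segment is at 0.120 and 0.0969 in AG, whereas cells with another segment are at 2.53 and 1.64.

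Trat1 averaged 0.120 and 0.0969 per 10000 in cells with Trbv13-3 of AG 1 and 2, against 2.22 and 0.791 in cells without. That is 18.4-fold and 8.17-fold more in the cells without. In AG_CPI the levels were 0.0167 and 0.0247 with the segment, from 3 and 8 UMIs, against 0.0689 and 0.132 without, or 4.13-fold and 5.32-fold more in the cells without. Both cell sets of AG_CPI were thus below the cells without the segment in AG.

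Over the 4 mice the log2 difference of Trat1, with minus without, was -1.72 (SE 0.197), with a limma adjusted p of 0.00259 that became 0.121 with no filter on low values. For Smco4 it was -0.69 (SE 0.15, limma adjusted p = 0.0477). In this comparison 2.15% of 7729 genes were called, 91 higher (1.18%) and 75 lower (0.97%). Under 13 other settings Smco4 passed in 7, and the calls lost are given with the processing. Without AG_CPI 1 the difference was -1.80 for Trat1 and -0.71 for Smco4 (limma adjusted p = 0.0391). After removal of cells with a Trdc or Trdv4 UMI it was -1.86 for Trat1 and -0.85 for Smco4 (limma adjusted p = 0.00822).

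Smco4 averaged 0.288 and 0.336 per 10000 in the cells with the segment in AG, against 0.971 and 0.587 without. In AG_CPI it averaged 0.18 and 0.207 with the segment, against 0.245 and 0.325 without. The difference had one sign in all 4 mice and was largest in AG 1. Without AG 1 the limma adjusted p was 0.0842 and without AG_CPI 2 it was 0.296.

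Keratinocyte markers moved the same way, with 8 of 12 lower in cells with the segment (Krt10 by -1.82, Krt1 by -1.94 and Dmkn by -1.43 on the log2 scale) and a median of -1.41, against 0.03 over all genes. All 12 had UMIs in both cell sets of every antigen mouse. Their summed level was 13.0 and 20.2 per 10000 with and 21.3 and 115.5 without the segment in AG, and 4.14 and 9.44 with and 8.61 and 35.9 without in AG_CPI. Myeloid markers were also lower with the segment (3 of 8 tested, H2-Ab1, Cd74 and H2-Aa), at sums of 2.95 to 13.6 per 10000 with and 12.2 to 24.7 without. Keratinocyte-like cells express Smco4 and Ahnak, and the part of these markers in the differences was not tested.

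Cells with the segment were also deeper in AG, with medians of 3436 and 3505.5 UMIs, against 2527 and 2512 without. Thinned to 1500 UMIs per cell, which no cell fell below, the fitted difference was -1.84 for Trat1 and -0.51 for Smco4 (limma adjusted p = 0.110 for Smco4).

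Setting cells with Trbv13-3 against cells with another Trbv segment gave fitted differences further from 0 for both genes. Trat1 in the latter cells was at 2.53 and 1.64 per 10000 in AG and at 0.186 and 0.165 in AG_CPI. The log2 difference was -2.26 (SE 0.175) for Trat1, which met the filter through the cells with another segment, and -0.94 (SE 0.159, limma adjusted p = 0.00115) for Smco4. Here keratinocyte sums of the cells with another segment were 18.3 and 33.0 per 10000 in AG and 6.66 and 15.0 in AG_CPI, against 13.0 and 20.2 and 4.14 and 9.44 with Trbv13-3.

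Styk1 was at 0.0682 and 0.0378 per 10000 with the segment in AG and at 0.0524 and 0.0125 without. In AG_CPI it was at 0.255 and 0.218 with and 0.264 and 0.195 without. The log2 difference was 0.14 (SE 0.140, limma adjusted p = 0.722). Both cell sets were thus low in AG and higher in AG_CPI.

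Gprin3 was at 0.0833 and 0.0895 per 10000 with the segment in AG and at 0.105 and 0.0870 without. In AG_CPI it was at 0.228 and 0.330 with and 0.317 and 0.310 without. The log2 difference was -0.08 (SE 0.139, limma adjusted p = 0.848). These results do not show that the 2 cell sets were alike.

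Ahnak was at 2.79 and 3.70 per 10000 with the segment in AG and at 4.35 and 5.50 without, lower with the segment in both mice. In AG_CPI it was at 4.51 and 4.62 with and 4.20 and 4.93 without, and the mice had opposite signs. The log2 difference over the 4 mice was -0.25 (SE 0.0821, limma adjusted p = 0.182).

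**Figure D2:**
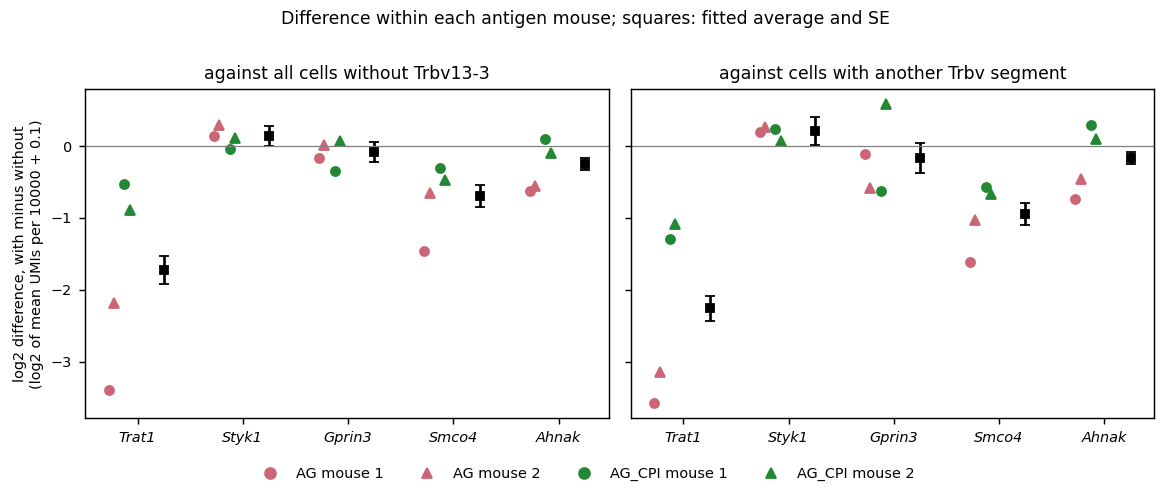
Log2 difference of each member, cells with minus cells without Trbv13-3, within each AG mouse (red) and AG_CPI mouse (green), on the scale of mean UMIs per 10000 plus 0.1 before scaling between libraries. Squares and bars are the limma average and its SE over the 4 mice, against all cells without the segment (left) and against cells with another Trbv segment (right). Trat1 and Smco4 lie below 0 in each mouse on both sides.

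Whether the difference itself changed between AG and AG_CPI was fitted as an interaction, and 0.427% of 7729 genes were called, 0.155% higher and 0.272% lower. With no filter on low values no gene was called, so the interaction calls named below depend on the filter. With the filter, no member passed. The values were 2.05 for Trat1 (SE 0.394, limma adjusted p = 0.0638), 0.57 for Ahnak (SE 0.164, limma adjusted p = 0.210) and 0.65 for Smco4 (SE 0.30, limma adjusted p = 0.481). They are built from changes between AG and AG_CPI in the gate that chose the members. For Trat1 the AG_CPI cells with the segment were at 0.0167 and 0.0247 per 10000, below the 0.1 added before the logarithm, which makes the AG_CPI difference smaller on this scale than as a fold.

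Under 13 other settings the adjusted p of Trat1 ran from 2.04e-12, without AG 2, to 0.665, and was under the threshold in 6. Ahnak was under it against other Trbv segments (limma adjusted p = 0.0117) and without AG 2 (0.00127), and Smco4 without AG 2 (0.00716). Nothing is read from these for the members, for the same reasons.

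Tcf7, a factor of resting and memory-like T cells, was at 0.190 and 0.0880 per 10000 with the segment in AG and at 1.19 and 0.675 without. In AG_CPI it was at 0.164 and 0.190 with and 0.239 and 0.209 without. The log2 difference was -1.13 (SE 0.121, limma adjusted p = 0.00200), and it was smaller in AG_CPI by 1.85 (SE 0.242, limma adjusted p = 0.0178).

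Of the naive and circulating T cell list, Tcf7 and Id3 (-0.79) were lower, 2 of 15 tested, and none was higher. The list's median was -0.15. Its interaction was positive for 3 of 15, Tcf7, Id3 and Il7r (1.86 for Id3 and 1.75 for Il7r).

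Of the cytotoxic effector list, 9 of 13 were higher in cells with the segment and none was lower, with a median of 0.79. They included Gzmk (0.92), Ccl4 (0.81) and Ifng (0.61). Of the inhibitory receptor and exhaustion list, 5 of 13 were higher and none was lower, among them Nr4a2 (0.82), Havcr2 (0.96) and Tigit (0.89), with a median of 0.43. The interaction was negative for 3 of 13 cytotoxic genes (Gzmk by -1.39, Ccl5 by -1.77 and Ccl4 by -1.21) and for 6 of 13 inhibitory genes (Tox by -1.60, Entpd1 by -1.75 and Havcr2 by -1.77).

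Of the innate-like and NK receptor list, which holds the class of genes Styk1 is known with, 5 of 13 were higher (Klrc1 by 1.05, Klrd1 by 0.74 and Klrk1 by 0.75) and Tyrobp was lower (-0.87). Its median was 0.41, and the interaction was called for Klrc1 only (-1.46). None of the 24 genes of the T cell receptor complex and proximal signalling list, the surroundings of TRIM, was called in either direction (median 0.16), nor any of the 14 annexin, S100 and related genes chosen around Ahnak (median 0.14). By the same fit, 1120 of the 7729 genes had an unadjusted p under 0.05. Tnfrsf4 was lower (-0.96), 1 of 4 CD4 and regulatory T markers, and Trdc was higher (1.35), 1 of 4 dendritic epidermal T cell markers.

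Trat1 in gate cells with another Trbv segment and no Trbv13-3 UMI was then set beside the whole gate. P14 cells whose Trbv13-3 was missed can be among them, since 53, 52, 71 and 115 of the cells with Trbv13-3 in AG 1, AG 2, AG_CPI 1 and AG_CPI 2 also carried another segment. From NO_AG to AG, cells with another Trbv segment had Trat1 at 1.77 and 3.37 against 2.53 and 1.64 per 10000, and the groups overlapped. Their fitted log2 difference was -0.18 (SE 0.301), where that of the whole gate was -1.57. From AG to AG_CPI the same cells went to 0.186 and 0.165, below both AG mice, with a fitted difference of -2.99 (SE 0.301).

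Smco4 in cells with another segment was at 1.56 and 1.09 per 10000 in NO_AG, 1.08 and 0.790 in AG, then 0.316 and 0.386 in AG_CPI. The fitted difference was -0.38 (SE 0.274) for AG minus NO_AG and -1.22 (SE 0.274) for AG_CPI minus AG. The AG_CPI mice again lay below both AG mice.

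Styk1 and Gprin3 in the same cells were already low in AG, from few UMIs (5 and 1 for Styk1, 10 and 6 for Gprin3). Styk1 was at 0.236 and 0.30 per 10000 in NO_AG, 0.0466 and 0.0150 in AG, then 0.200 and 0.201 in AG_CPI. Gprin3 was at 0.523 and 0.403, 0.0968 and 0.184, and 0.405 and 0.187 in that order. Their fitted differences for AG minus NO_AG were -1.45 (SE 0.350) and -1.19 (SE 0.350), close in size to those of the whole gate.

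Ahnak in these cells was at 7.72 and 7.39 per 10000 in NO_AG, 4.70 and 5.14 in AG, then 3.66 and 4.30 in AG_CPI. Its fitted difference was -0.53 (SE 0.175) for AG minus NO_AG. NO_AG lay above both antigen groups here as in the whole gate.

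The state of the cells with another segment also differed between AG and AG_CPI. Their summed cytotoxic effector genes were at 60.4 and 71.8 per 10000 in AG and at 213 and 192 in AG_CPI, against 61.3 and 55.8 in NO_AG. Their Tcf7 was at 1.42 and 1.41 in AG and at 0.490 and 0.372 in AG_CPI. In the cells with Trbv13-3 the cytotoxic sum was already at 353 and 258 in AG, against 226 and 237 in AG_CPI.

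In the cells with Trbv13-3 themselves, the fitted difference for AG_CPI minus AG was -0.82 (SE 0.190) for Trat1, -0.51 (SE 0.186) for Smco4, 1.15 (SE 0.204) for Styk1, 1.01 (SE 0.204) for Gprin3 and 0.47 (SE 0.170) for Ahnak. The 2 groups did not overlap for the members, which were chosen by group differences in this gate. The share of all genes that also did not overlap was not counted, so nothing is read from this. In these cells Trat1 in AG_CPI rests on 3 and 8 UMIs, and Styk1 in AG on 14 and 5. In NO_AG these cells numbered 2 and 13, and the 13 had Trat1 at 4.39 per 10000.

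The difference of the gate between AG_CPI and AG can be divided into a part from levels within the 2 cell sets and a part from their shares. For Trat1 levels gave 82.7% to 92.3% of the difference over the 4 pairs of an AG and an AG_CPI mouse. For Smco4 levels gave 81.7% to 94.8%. With 3 cell sets (Trbv13-3, another Trbv, none) the ranges were 78.1% to 92.5% for Trat1 and 75.5% to 94.8% for Smco4. Each set can itself be a mixture, and a change of mixture inside a set counts here as levels. The division thus cannot tell such a change from a change within cells.

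The rise of Styk1 and Gprin3 from AG to AG_CPI lay in levels too, at 97.6% to 99.8% for Styk1 and 99.2% to 103% for Gprin3, where a value over 100% means that the shares moved the other way. For Ahnak the 4 pairs did not have one sign, with differences of 0.769, 1.12, -0.236 and 0.113 per 10000, of which levels gave 73.5% to 253%. With 3 cell sets the ranges were 93.8% to 99.7% for Styk1, 92.8% to 110% for Gprin3 and 73.2% to 309% for Ahnak. No such division was made against NO_AG, where the mice had 2 and 13 cells with the segment.

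**Figure D3:**
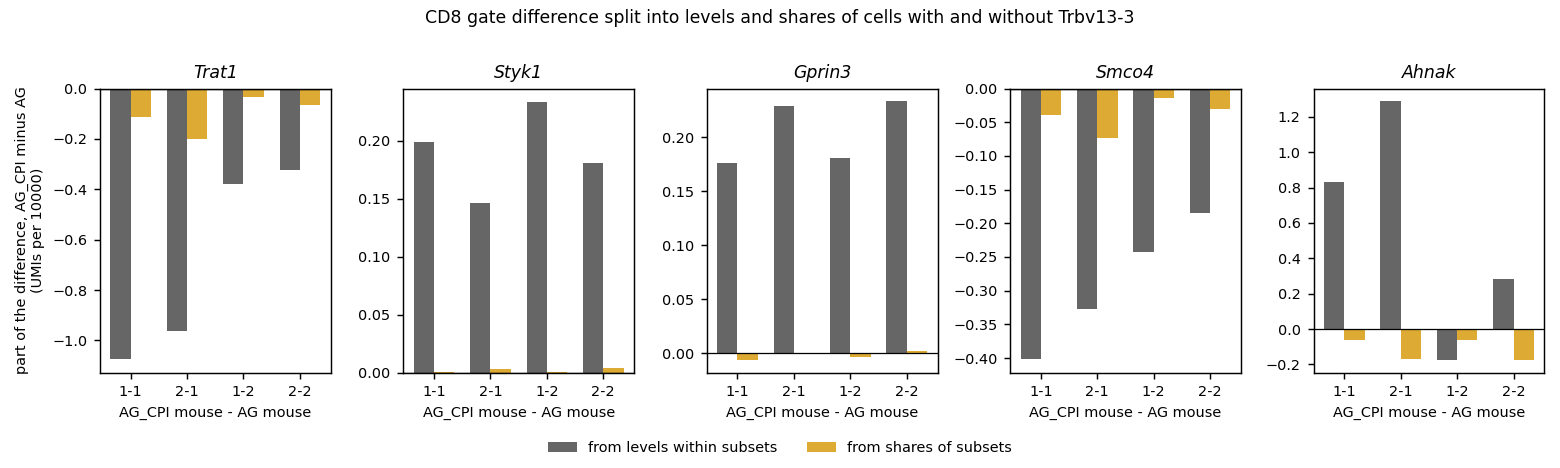
Difference between AG_CPI and AG in the CD8 gate for each member, in UMIs per 10000, divided into the part from levels within cells with and without Trbv13-3 (grey) and the part from the shares of these cells (yellow), for the 4 pairs of mice named below the bars. For Trat1 and Smco4 both parts are below 0, and the grey bars hold 82.7% to 92.3% and 81.7% to 94.8% of the sum. A change of mixture inside a cell set falls in the grey bars.

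Trdv4 cells, taken by a Trdv4 UMI with Cd3e or Cd3g, had Trat1 above the other classes in NO_AG and AG. In AG_CPI the other gamma-delta T cells were higher, at 3.22 and 2.61 per 10000 from 6 and 9 cells. The Trdv4 cells numbered 644 and 517 in NO_AG, 297 and 225 in AG, then 61 and 128 in AG_CPI. Dendritic epidermal T cell markers with a column (Trdv4 itself, Trdc, Fcer1g and Cd7, 4 of 9 listed) summed to 147 and 125 per 10000 in NO_AG, 149 and 67.2 in AG, then 20.6 and 28.6 in AG_CPI. The sum was lowest in AG_CPI, where 53 of 61 and 109 of 128 also carried a Cd8a or Cd8b1 UMI, against 8, 20, 30 and 54 in the NO_AG and AG mice.

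Trat1 in Trdv4 cells was at 9.30 and 8.03 per 10000 in NO_AG, 9.67 and 4.56 in AG, then 1.33 and 1.40 in AG_CPI. NO_AG and AG overlapped, and AG_CPI lay below both. Cells without a Cd8a, Cd8b1 or Trbv13-3 UMI were at 9.36 and 8.17 in NO_AG, 10.6 and 5.50 in AG, then 9.16 and 8.73 in AG_CPI, the last from 8 and 19 cells. Those with such a UMI were at 0.152 and 0.126 in AG_CPI. The low Trat1 of AG_CPI Trdv4 cells was thus seen in the cells that share UMIs with the CD8 gate.

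**Figure D4:**
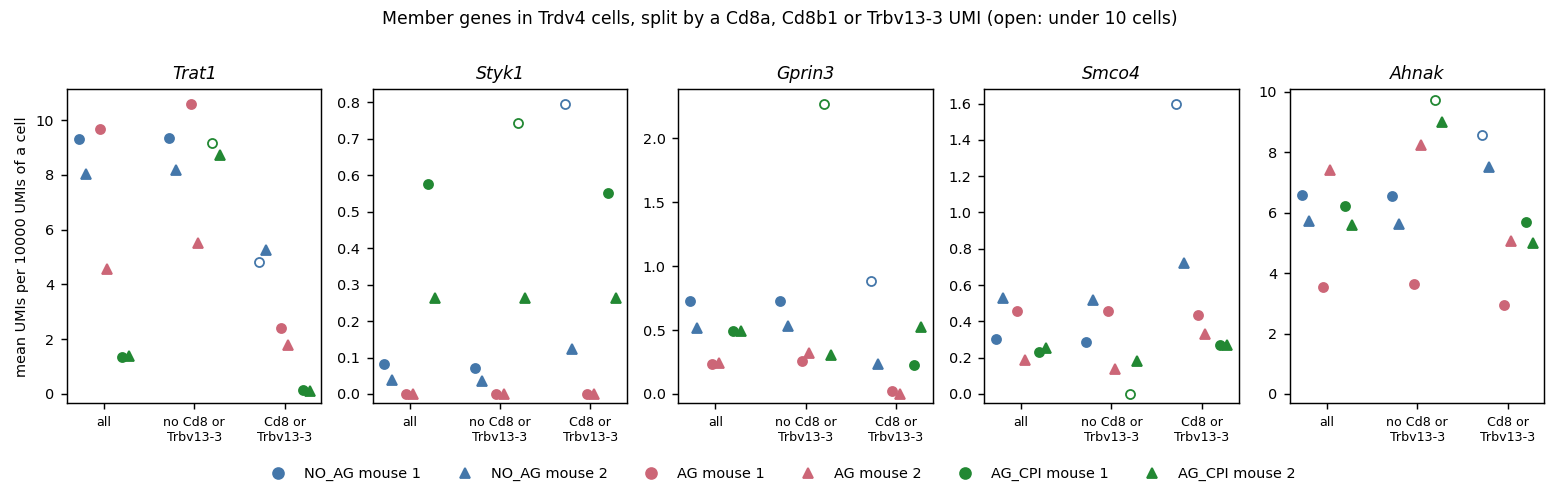
Mean UMIs per 10000 for each member in Trdv4 cells of each mouse: all of them, those with no Cd8a, Cd8b1 or Trbv13-3 UMI, and those with one (linear axes; circles mouse 1, triangles mouse 2, open symbols under 10 cells). In AG_CPI, Trat1 is at 1.33 and 1.40 in all Trdv4 cells and at 9.16 and 8.73 in those without such a UMI.

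Between AG and NO_AG, limma called 0.276% of 7976 genes in Trdv4 cells, 0.263% higher and 0.0125% lower, and no member passed. Gprin3 was at 0.728 and 0.517 per 10000 in NO_AG and at 0.232 and 0.239 in AG, so the groups did not overlap. Its log2 difference was -0.98 (SE 0.278, limma adjusted p = 0.516), and -0.82 (SE 0.256, limma adjusted p = 0.75) without cells that share UMIs with the CD8 gate. In all, 402 genes had an unadjusted p under 0.05.

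The other members had log2 differences of -0.24 (Trat1, SE 0.326), -0.63 (Styk1, SE 0.372), -0.22 (Smco4, SE 0.385) and -0.12 (Ahnak, SE 0.294), all with a limma adjusted p of 1.00. Ahnak was at 6.57 and 5.73 per 10000 in NO_AG and at 3.55 and 7.43 in AG, so its 2 AG mice lay on either side. Of the lists in this comparison, 4 of 12 cytotoxic effector genes rose (Ccl5 by 4.23, Ccl4 by 4.19 and Gzma by 3.29 on the log2 scale) and 1 of 13 inhibitory genes rose (Pdcd1 by 2.29). Their summed level in Trdv4 cells with no Cd8a, Cd8b1 or Trbv13-3 UMI was 12.4 and 13.7 per 10000 in NO_AG and 11.9 and 77.6 in AG. Among those cells limma called 0 of 7681 genes, with 491 at an unadjusted p under 0.05.

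Between AG_CPI and AG, limma called 2.76% of 7976 genes in Trdv4 cells, 1.42% higher and 1.34% lower. Trat1 was lower, by -2.13 on the log2 scale (SE 0.326, limma adjusted p = 0.0201), and the fitted value of Styk1 was 2.38 (SE 0.372, limma adjusted p = 0.0220). Styk1 passed the filter on low values only through the AG_CPI mice, where it is high, so it had to differ and nothing is read from its p. Most AG_CPI cells here had also entered the CD8 gate, as counted above, so these values are not separate from the choice of the members. The Trat1 call was lost without AG_CPI 1 (limma adjusted p = 0.130) and without AG_CPI 2 (0.0565), and with no filter on low values (0.141). Styk1 missed the threshold without AG 1 (0.0710), without AG 2 (0.0594) and with no filter (0.141). Gprin3 (0.89, SE 0.278), Smco4 (-0.17, SE 0.385) and Ahnak (0.26, SE 0.294) did not pass, and 3 of 12 keratinocyte markers fell. Styk1 was at 0.0814 and 0.0395 per 10000 in NO_AG, 0 in both AG mice, and 0.577 and 0.263 in AG_CPI, from 10 UMIs in each AG_CPI mouse. Among cells that share no UMIs with the gate, AG_CPI 1 kept 8 cells, below the 10 needed for a test.

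CD4 T cells (Cd4 without Cd8a, Cd8b1 or Foxp3) were few, from 21 to 108 a mouse. Limma called 0.0259% of 3857 genes in each of the 2 comparisons, no member among them. Trat1 was at 1.87 and 2.81 per 10000 in NO_AG, 1.79 and 0.257 in AG, then 0 and 0.985 in AG_CPI. NO_AG lay above both antigen groups, narrowly so for AG 1, and the antigen groups overlapped. Its log2 difference was -1.47 (SE 1.03, limma adjusted p = 0.918) for AG minus NO_AG and -1.41 (SE 1.03, limma adjusted p = 0.679) for AG_CPI minus AG.

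Ahnak in CD4 T cells was at 6.61 and 7.95 per 10000 in NO_AG, 4.44 and 5.47 in AG, then 4.43 and 5.21 in AG_CPI. NO_AG lay above both antigen groups, as in the CD8 gate, with a log2 difference of -0.47 for AG minus NO_AG (SE 0.264, limma adjusted p = 0.864). Smco4 was at 1.44 and 1.62 in NO_AG, 1.81 and 0.864 in AG, then 0.829 and 1.51 in AG_CPI, and the groups overlapped. Styk1 had no UMI in any CD4 T cell, and in AG 1 0 of 108 cells allows 2.78% of cells with a detected UMI, which is no limit on cells that express it, and Gprin3 had 1 to 6 UMIs a mouse, so neither entered the test.

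ILC2-like cells (Ptprc, Gata3 and Il7r without Cd3e or Cd3g) numbered 23 and 26 in NO_AG, 12 and 9 in AG, then 4 and 5 in AG_CPI, too few for a test. Their Ahnak was at 7.68 and 7.05 per 10000 in NO_AG and at 5.85 and 7.58 in AG. Myeloid cells had Ahnak at 8.33 and 9.77 in NO_AG, 2.36 and 3.49 in AG, then 3.59 and 3.50 in AG_CPI, with NO_AG above both other groups. Keratinocyte-like cells showed no such order, at 6.59 and 6.82, 5.63 and 7.78, and 9.08 and 7.80.

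By level in NO_AG, Trat1 was ordered Trdv4 cells, then other gamma-delta T cells (2.76 and 5.40 per 10000), then the CD8 gate (2.18 and 3.22) and CD4 T cells (1.87 and 2.81). The last 3 overlapped. Langerhans-like and myeloid cells had at most 3 UMIs in a mouse, and fibroblast-like cells had none.

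The genes most like each member over 34 means of lymphoid cell classes and mice, of 7499 genes compared, were found by Pearson's r of log2 levels. These means share libraries and some share cells, so r is a description. For Trat1 they were Vim (0.80), Plin3 (0.78) and St6gal1 (0.77). For Smco4 they were Bmp7 (0.82), Ass1 (0.81) and Rpl3 (0.79). For Gprin3 they were Man2a1 (0.70), Arhgap26 (0.68) and Nub1 (0.67), for Ahnak Eif4g2 (0.66), Aldh2 (0.66) and Paip1 (0.66), and for Styk1 Golim4 (0.64), F2rl1 (0.61) and Magohb (0.61).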

How the data were processed

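Single cells of skin from 6 mice were profiled with a 10x 5' kit per the labels' protocols, and reads were processed with Cell Ranger 3.1 and mm10 per the submitters' processing notes; other steps are not given in the sources used here. The deposited values are log10 of 1 plus UMIs per 10000 UMIs of a cell, and the base was read from the values, which give whole UMIs (tolerance 0.05) for 100% of entries under log10 and 66.9% to 69.8% under the natural logarithm. Cells under 200 genes or over 20% mitochondrial UMIs (51) and the 666 with the highest Scrublet scores (scanpy 1.11.5), at 0.8% per 1000 cells, were left out of 21178. Cell classes were gated on UMIs, and levels are means per library, taken as 1 mouse each. Keratinocyte-like and fibroblast-like cells needed 10 keratin or collagen UMIs per 10000.

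Differences were fitted with limma 3.58.1 (limma-trend, R 4.3.3) on log2 of the TMM-scaled mean plus 0.1, which understates folds of low genes, with Benjamini-Hochberg adjustment over all genes and a threshold of 0.05. A class needed 10 cells in a library, and a gene a mean of 0.1 and 10 UMIs in at least 2 libraries. Comparisons within mice had the mouse as a block, and others had the group only. For comparisons within mice, the setting called no replicate block dropped the mouse block and so ignored the pairing. For the others, a replicate block added the replicate number. The fits were also run on simulated counts with the same dispersion for all genes and changes in genes of higher level only. That run does not speak to the low levels of several members here. Replicates are separate mice, and 2 against 2 cannot give an exact permutation p below 0.333, nor 4 pairs below 0.125.

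The members, gene lists and tests were chosen with earlier results of these data known. Named beside the members are up to 3 called genes per list and direction with the smallest p, and the 3 genes most like each member; Tcf7 levels and the sex-linked genes were added after their values were seen. The difference with minus without Trbv13-3 was also fitted in AG mice alone (365 genes called) and AG_CPI mice alone (12 called), and these fits are not used for calls.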

Additional observations from a re-analysis of the deposited data

Results flagged for a closer look

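Ddx3y, a Y-linked gene, had 87 UMIs in cells outside the T cell gates of AG_CPI 1, cells that entered none of the tests above. These UMIs lay in 15.2% of 519 cells. The CD8 gate of the same library had 28 Ddx3y UMIs, and the other 5 mice had 0 in both sets of cells. Gprin3 in other gamma-delta T cells was at 0.175 and 0.15 UMIs per 10000 in NO_AG and at 0.269 and 0.201 in AG, a difference of group means of 0.0726 that is opposite in sign to that in the CD8 gate for each mouse. These levels rest on 4, 3, 2 and 2 UMIs, and the difference between the cell types was not tested.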

How the results depend on the processing

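The 26 member tests were recomputed under 336 alternatives: 296 kept their direction and side of the threshold, 14 lost and 10 gained a call, and 16 changed sign. Of 210 alternatives for the 15 member differences in the CD8 gate, 183 moved by less than the SE of the fitted difference, 25 moved further and 2 changed sign. The cause was not tested in any case. Trat1 with minus without Trbv13-3, whose p is not read, missed the threshold with no filter on low values (limma adjusted p = 0.121) and with no replicate block (0.0813). Smco4 lost it with a pseudocount of 0.5 (0.111), no filter (0.264), thinning to 1500 UMIs (0.110), no replicate block (0.348), and without AG 1 (0.0842) or AG_CPI 2 (0.296). Ahnak passed without AG 2 (0.00491). In Trdv4 cells, AG_CPI minus AG, Trat1 and Styk1 each missed the threshold in 3 settings, at 0.141 for both with no filter.

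Genes called with minus without Trbv13-3 numbered 166, and 66 with a pseudocount of 0.5, 10 with no filter, 296 on UMI sums, 5 with no replicate block and 26 to 533 leaving out a mouse. For the change of that difference between AG_CPI and AG the 33 became 8 with a pseudocount of 0.5, 0 with no filter, 16 on UMI sums, 52 with doublets kept, 96 thinned, 1 with no replicate block, 299 against other Trbv segments, 74 without Trdc or Trdv4 cells and 2 to 497 leaving out a mouse. In the CD8 gate, the 99 for AG minus NO_AG became 7 with no filter, 164 with a replicate block, 60 without Trdc or Trdv4 cells and 34 to 233 leaving out a mouse. The 2 for AG_CPI minus AG became 0 with no filter or UMI sums, 1 thinned or without Trdc or Trdv4 cells, 56 with a replicate block and 0 to 114 leaving out a mouse. The 252 for AG_CPI minus NO_AG became 13 with no filter, 165 thinned, 145 without Trdc or Trdv4 cells and 39 to 495 leaving out a mouse. In Trdv4 cells, the 22 for AG minus NO_AG became 9 with a pseudocount of 0.5, 2 with no filter, 37 on UMI sums, 11 thinned, 0 without Cd8 or Trbv13-3 UMIs and 4 to 26 leaving out a mouse. The 220 for AG_CPI minus AG became 4 with no filter, 143 on UMI sums, 103 thinned and 4 to 176 leaving out a mouse. In CD4 T cells, the 1 for AG minus NO_AG became 14 with a pseudocount of 0.5, 15 on UMI sums, 11 with a replicate block and 0 to 13 leaving out a mouse. The 1 for AG_CPI minus AG became 7 with a pseudocount of 0.5, 0 with no filter, 9 on UMI sums, 2 with doublets kept, 3 thinned, 5 with a replicate block and 0 to 94 leaving out a mouse.

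Signs changed as follows on the log2 scale, with ranges over the fits that leave out a mouse. Gprin3 with minus without Trbv13-3 ran from -0.20 to 0.043 (without AG_CPI 1), and its change between groups from -0.31 to 0.16 (positive without AG_CPI 1 and, at 0.048, without AG 2), with 0.052 thinned and 0.32 against other Trbv segments. Styk1 in the CD8 gate, AG_CPI minus NO_AG, ran from -0.44 to 0.11 (without NO_AG 1), with 0.047 thinned. In Trdv4 cells, AG minus NO_AG, Trat1 ran from -0.81 to 0.31 and Smco4 from -0.72 to 0.26 (both positive without AG 2, and Smco4 also without NO_AG 2, at 0.08), and Ahnak from -0.62 to 0.37 (without AG 1). For AG_CPI minus AG, Smco4 ran from -0.63 to 0.32 and Ahnak from -0.23 to 0.80 (both changed without AG 1). In CD4 T cells, Smco4 for AG minus NO_AG was 0.00044 thinned and ran from -0.67 to 0.30 (without AG 2). For AG_CPI minus AG, Trat1 ran from -3.13 to 0.29 (without AG_CPI 1) and Smco4 from -0.87 to 0.12 (without AG 1 or AG_CPI 1).

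Replicate numbers did not pair the mice, with correlations of deviations of 0.0795, 0.106 and 0.0535. The ILC2-like comparisons, and Trdv4 AG_CPI minus AG without Cd8 or Trbv13-3 UMIs, had too few cells to be fitted. In the whole CD8 gate, Styk1 and Gprin3 in AG rest on 8 to 33 UMIs a mouse, and Trat1 in AG_CPI on 19 and 25. The cell sets within the gate rest on fewer.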
